A study of Mus musculus with 28 samples.

Results

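The simple epithelial keratins Krt7, Krt8, Krt18, Krt19, Krt20, Krt23 and Krt80 were followed through 7 lines of mIMCD-3 cells. They were chosen by name, and each symbol matched 1 row of the expression tables, so that 7 of 45706 genes are described. mIMCD-3 is a line of kidney epithelial cells from the inner medullary collecting duct of a mouse that carries an SV40 transgene. RNA sequencing was performed on 28 libraries, 4 from each line. The lines were the polyclonal WT culture, which is a mixture of cells, the monoclonal line WT5, which grew from 1 sorted cell of that culture, and subclones 1 to 5, which grew from single sorted cells of WT5 over about 6 weeks. All lines are wild-type and unedited, received no treatment, and were harvested 4 days after confluency. WT5 is thus 1 clone and stands for no other clone of the culture. The comparison of WT5 with polyclonal WT cells asks what clonal isolation does to expression, and that of the subclones with WT5 asks how far a second isolation adds to it.

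Keratins are intermediate filament proteins. A filament is built from pairs of a type I and a type II keratin, and a keratin without a partner is degraded. Keratin 8 (type II) and keratin 18 (type I) form the founding pair of simple epithelia, which includes the epithelium of kidney tubules. Keratin 7 (type II) and keratin 19 (type I) are added in ducts, including the collecting duct. Keratin 20 (type I) marks the differentiated cells of gut and the superficial cells of urothelium. Keratin 23 (type I) and keratin 80 (type II) are less studied. Keratin 80 occurs in many epithelia.

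In the mouse, the type II genes lie in a cluster on chromosome 15 and the type I genes on chromosome 11, except Krt18, which lies beside its partner. In GRCm38 with the GENCODE M21 annotation, Krt80 spans chr15:101347444-101370162 on the minus strand, Krt7 chr15:101411043-101430313 on the plus strand, Krt8 chr15:101996698-102004482 on the minus strand and Krt18 chr15:102028180-102032027 on the plus strand. On chromosome 11, all on the minus strand, are Krt20 at chr11:99428403-99438150, Krt23 at chr11:99477974-99493137 and Krt19 at chr11:100140810-100148665. All 7 are protein-coding genes.

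Promoter sequences, from 250 bases before to 50 bases after the annotated start, were found for 5 of the 7 genes in the RefSeq annotation of GRCm38.p6. Those shown are of the founding pair, of Krt7, the keratin that went against the others between polyclonal WT cells and WT5, and of Krt20, which had the largest decrease in a subclone. They are chr15:102004293-102004592 (minus strand) for Krt8, chr15:102027966-102028265 (plus) for Krt18, chr15:101412153-101412452 (plus) for Krt7 and chr11:99438104-99438403 (minus) for Krt20, each written 5′ to 3′ along its gene. Capitals mark matches, on either strand, to the TATA box letters TATAAA and the GC box letters GGGCGG.
Krt8: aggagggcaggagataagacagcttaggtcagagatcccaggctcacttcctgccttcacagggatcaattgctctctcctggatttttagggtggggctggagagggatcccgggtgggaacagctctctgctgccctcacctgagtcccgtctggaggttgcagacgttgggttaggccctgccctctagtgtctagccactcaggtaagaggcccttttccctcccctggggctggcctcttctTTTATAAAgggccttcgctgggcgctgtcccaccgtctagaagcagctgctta
Krt18: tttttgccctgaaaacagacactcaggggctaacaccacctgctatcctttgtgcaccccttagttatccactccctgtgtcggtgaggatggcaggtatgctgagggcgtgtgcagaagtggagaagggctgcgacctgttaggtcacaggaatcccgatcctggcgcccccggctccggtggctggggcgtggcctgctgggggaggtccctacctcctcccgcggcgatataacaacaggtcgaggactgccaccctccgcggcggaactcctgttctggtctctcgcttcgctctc
Krt7: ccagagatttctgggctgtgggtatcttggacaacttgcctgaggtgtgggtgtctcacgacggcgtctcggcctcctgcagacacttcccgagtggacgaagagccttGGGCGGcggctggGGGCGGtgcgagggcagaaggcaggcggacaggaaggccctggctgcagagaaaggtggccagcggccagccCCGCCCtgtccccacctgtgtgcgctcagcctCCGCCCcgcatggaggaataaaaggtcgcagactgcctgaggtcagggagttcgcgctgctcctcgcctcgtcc
Krt20: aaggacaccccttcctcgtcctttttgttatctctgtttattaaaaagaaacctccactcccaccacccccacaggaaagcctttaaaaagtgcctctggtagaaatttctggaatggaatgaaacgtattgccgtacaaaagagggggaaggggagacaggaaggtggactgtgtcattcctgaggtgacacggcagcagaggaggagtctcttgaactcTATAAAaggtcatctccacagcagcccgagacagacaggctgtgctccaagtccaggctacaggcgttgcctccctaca
Krt7 held 4 GC box matches and no TATAAA. Krt20 held TATAAA from 29 to 24 bases before the start, and in Krt8 a match on each strand overlapped across the start itself. Krt18 held neither motif, and the same was true of Krt23. The AP-1 letters TGANTCA were not found in any of the 5. Over 32851 mouse promoters of this length, 13.6% held TATAAA, 35.7% GGGCGG and 7.81% TGANTCA, so these matches are common and are given as a description of the sequences only. Krt19 and Krt80 were the other two genes.

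The levels are given as TPM, a measure of transcript abundance that is scaled for gene length and for the size of the library and can be compared between genes. Between 16270 and 19272 genes were above 0 in a library, and the depth of the libraries is unknown. The share of TPM in nuclear protein-coding genes was 73.6 to 79.5% in polyclonal WT libraries, 90.6 to 91.8% in WT5 and 81.8 to 88.1% in the subclones. The mitochondrial share of TPM was 5.02 to 10.4% in polyclonal WT libraries, 4.21 to 5.30% in WT5 and 5.60 to 10.2% in the subclones, so that every subclone library was above every WT5 library. No called keratin changed its direction when TPM was rescaled to nuclear protein-coding genes. Markers fit an epithelium: all 7 general markers, among them Cdh1 and Epcam, were above 0 in every library, with a summed level of 996.3 to 1411 TPM. The 12 markers of principal cells of the collecting duct summed to 71.8 to 111.8 TPM, most of it Hoxb7 with line means of 45.3 to 68.0 TPM. Among these markers Aqp2, the water channel that defines principal cells, was listed at 0 in all 28 libraries. The 6 fibroblast markers summed to at most 2.12 TPM. The reads of polyclonal WT cells were single-end and 50 bases long, while those of WT5 were paired-end, 150 bases long and made at another time, so that line, read type and time cannot be told apart. The subclones come from another table than WT5, and a difference that all subclones share with respect to WT5 cannot be told apart from a difference between these sets of libraries. The sources call the 4 libraries of a line both biological and technical replicates, so p-values measure the spread between these libraries, which may be technical.

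Krt8 and Krt18 were among the most abundant mRNAs of all lines. By mean TPM of all genes, Krt18 ranked between 148 and 241 and Krt8 between 141 and 417. Krt19 and Krt7 followed at 155.5 to 343.6 and 60.4 to 199.4 TPM, respectively. The remaining members were far lower, with line means of 1.94 to 15.5 TPM for Krt80, 0.49 to 4.38 TPM for Krt20 and 0.0375 to 0.603 TPM for Krt23. The sum of all 7 was 1377 ± 96.6 TPM in polyclonal WT cells, 2454 ± 37.1 TPM in WT5 and between 1333 and 1602 TPM in the subclones (mean ± SD, n = 4 libraries per line). Krt8 and Krt18 together made up 72.4% of this sum in polyclonal WT cells, 80.0% in WT5 and 82.5% (subclone 5) to 85.0% (subclone 2) in the subclones.

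**Figure D1:**
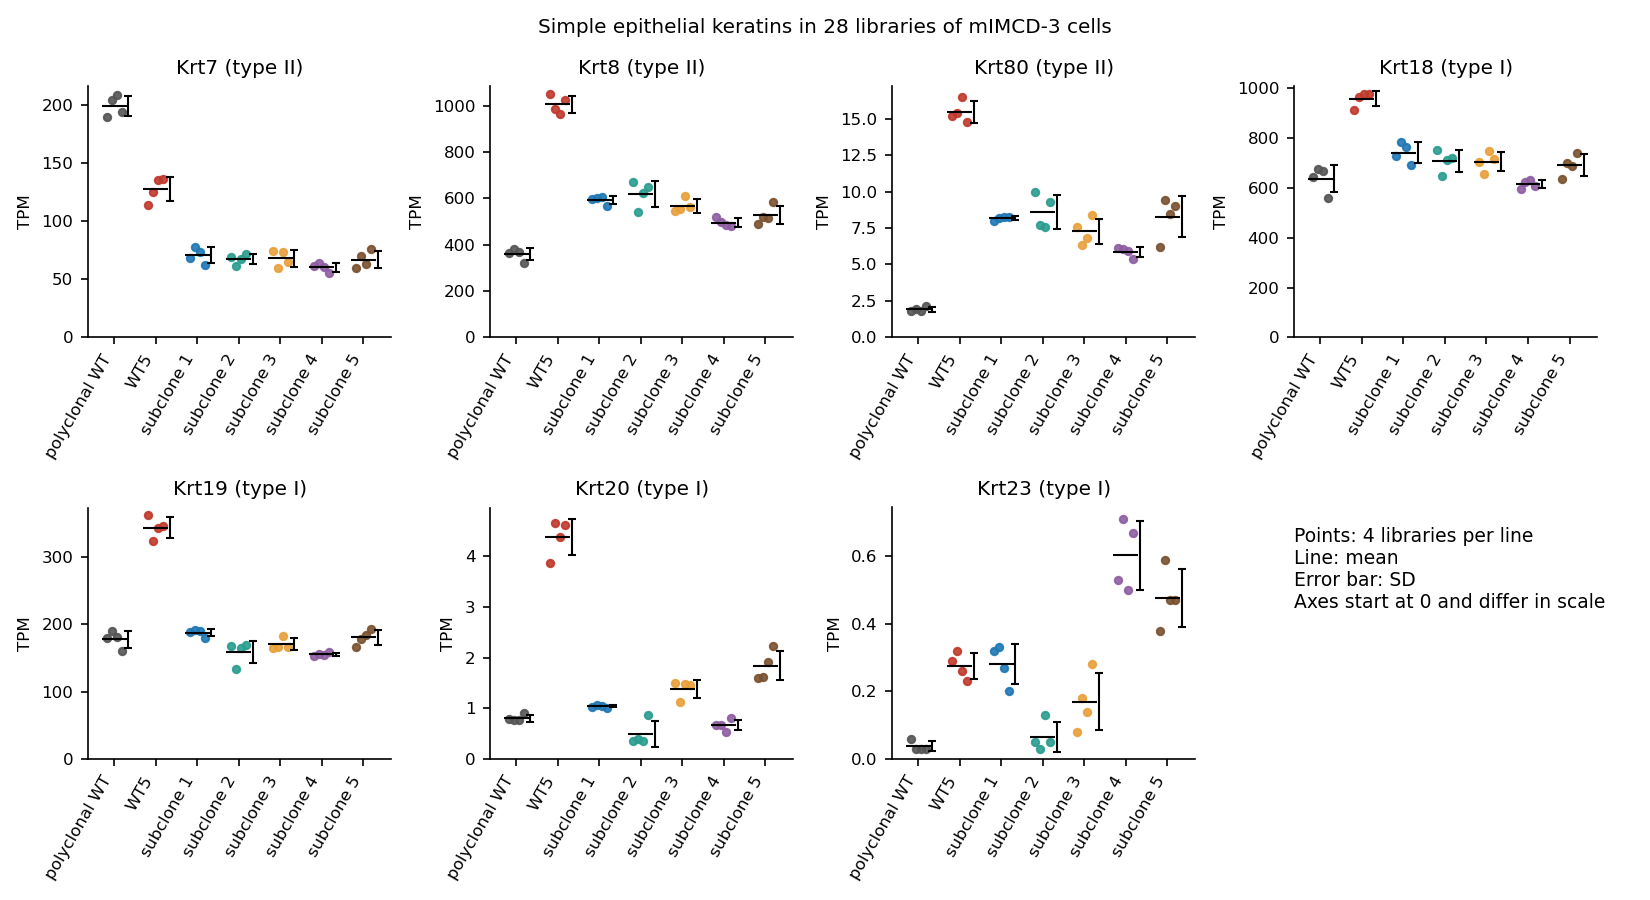
TPM of each keratin in the 28 libraries; each panel has its own axis from 0, points are libraries, horizontal lines are means and error bars are SD (n = 4). WT5 has the highest mean for Krt8, Krt18, Krt19, Krt20 and Krt80, polyclonal WT cells have it for Krt7, and subclone 4 has it for Krt23.

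The first comparison was WT5 with polyclonal WT cells. For each library, log2(TPM) was converted to z-scores and tested with limma over 13723 genes, with calls at a Benjamini-Hochberg adjusted p-value below 0.01. Of the 7 keratins, 6 rose in WT5 (Krt8, Krt18, Krt19, Krt20, Krt23 and Krt80) and 1 fell (Krt7), and for all 7 the libraries of the lines did not overlap. These calls stand against a high background: 65.5% of all genes tested were called, 34.5% as higher and 30.9% as lower, and 72.3% had ranges that did not overlap (48.5% higher and 23.8% lower). The median z-score difference of the keratins was 0.42, beside 0.01 for all genes, which the z-scores keep near 0. Differential expression was defined in the methods with a minimal z-score difference as well. A difference of 1 is an 8.56-fold change here, and 0 of 7 keratins exceeded it, beside 5.43% of all genes.

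Among the type II members, Krt8 was measured at 366, 382, 370 and 323 TPM in polyclonal WT libraries and at 1048, 984, 963 and 1026 TPM in WT5. Each WT5 library was thus above every polyclonal WT library, and the means differed 2.79-fold (z-score difference 0.42 ± 0.02 SE, limma adjusted p = 3.581e-07). Krt80 had 1.81, 1.97, 1.79 and 2.18 TPM in polyclonal WT libraries and 15.2, 15.4, 16.5 and 14.8 TPM in WT5. This was the largest change of the 7, a 7.98-fold rise from a low level (0.89 ± 0.02, limma adjusted p = 5.94e-08). Krt7 ran the other way, with 190, 205, 209 and 194 TPM in polyclonal WT libraries and 114, 125, 135 and 137 TPM in WT5. Its mean was 1.56-fold lower in WT5 (-0.27 ± 0.02, limma adjusted p = 6.295e-06).

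Of the type I members, Krt18 changed least, from 645, 675, 668 and 559 TPM in polyclonal WT libraries to 913, 963, 977 and 976 TPM in WT5. That is a 1.5-fold rise for Krt18 (0.14 ± 0.02, limma adjusted p = 0.000139). Krt19 went from 180, 190, 181 and 160 TPM to 362, 323, 344 and 346 TPM, a 1.93-fold rise (0.25 ± 0.02, limma adjusted p = 9.505e-06). Both of these abundant type I keratins therefore rose less than Krt8. Krt20 had 0.78, 0.76, 0.76 and 0.91 TPM in polyclonal WT libraries and 3.87, 4.65, 4.38 and 4.61 TPM in WT5, a 5.45-fold rise (0.71 ± 0.02, limma adjusted p = 1.529e-07). Krt23 was close to the lowest value the tables can hold, 0.01 TPM: it was at 0.06, 0.03, 0.03 and 0.03 TPM in polyclonal WT libraries and at 0.29, 0.32, 0.26 and 0.23 TPM in WT5. Its 7.33-fold ratio (0.85 ± 0.08, limma adjusted p = 2.552e-05) rests on these very low values, and with a pseudocount of 1 TPM Krt23 was not called (adjusted p = 0.0466).

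The scaling bears on these sizes. Without z-scores the median log2 difference of all genes was 0.24, and 67.7% of the calls over all genes were higher, compared with 52.7% with z-scores. On that scale Krt18 differed by 0.59, Krt19 by 0.95, Krt8 by 1.48 and Krt7 by -0.65. After TPM was rescaled to the nuclear protein-coding genes, the log2 differences were 0.34 for Krt18, 0.70 for Krt19, 1.24 for Krt8 and -0.89 for Krt7, and all 7 keratins were called in the same direction.

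**Figure D2:**
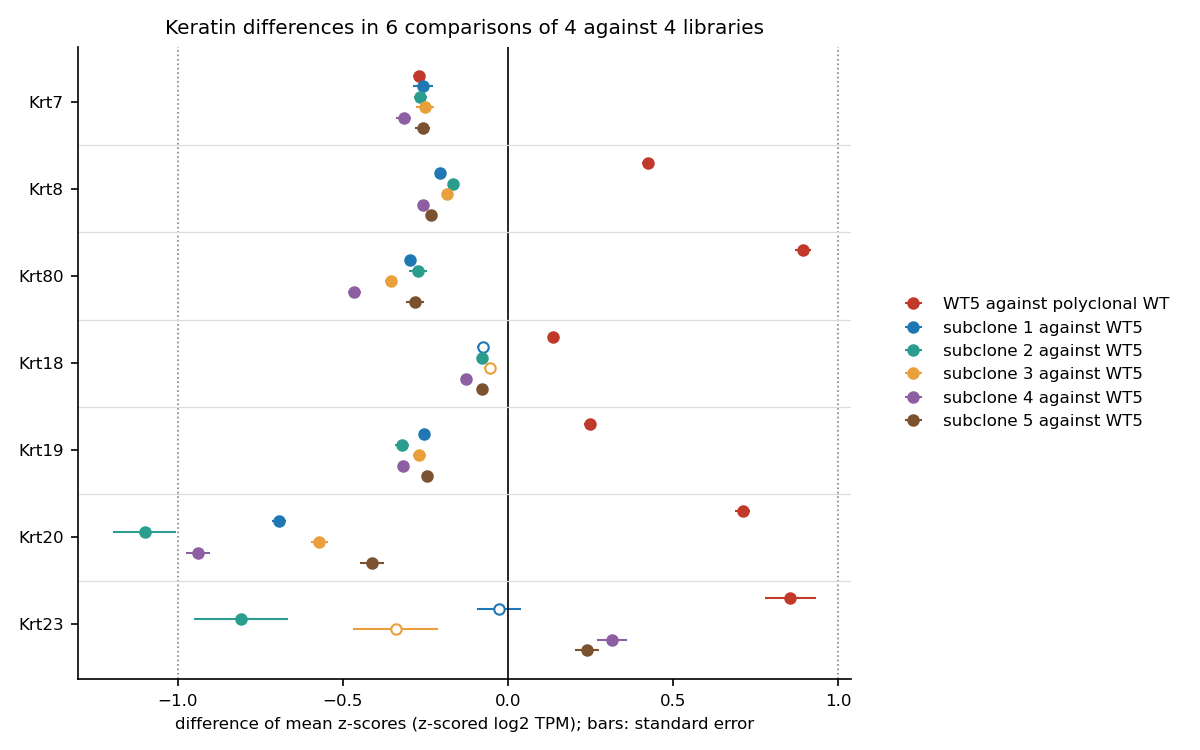
Difference of mean z-scores for each keratin in 6 comparisons, with standard errors; filled points passed an adjusted p-value below 0.01, open points did not, and dotted lines mark a difference of 1. WT5 lies to the right of polyclonal WT cells for 6 keratins and to the left for Krt7, and only Krt20 in subclone 2, at -1.10, lies beyond a dotted line.

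The second comparison set each subclone beside WT5, over 13860 genes. Since all 5 comparisons use the same WT5 libraries, they are not independent. In subclone 1, 5 of 7 keratins fell, against a background of 26.3% of all genes called and 13.6% called lower. All 7 fell in subclone 2, where 26.0% of genes were called and 12.6% called lower. In subclone 3, 5 fell (19.5% of genes called, 10.9% lower). In subclone 4, 6 fell and Krt23 rose (37.3% called, 19.2% lower and 18.2% higher), as was the case in subclone 5 (21.9% called, 11.7% lower and 10.2% higher). The median z-score difference of the keratins lay between -0.32 and -0.24, whereas that of all genes was within 0.01 of 0. The z-scores set the mean of each library to 0, which keeps the median of all genes near 0. Without z-scores the median log2 difference of all genes was -0.037 (subclone 1) to -0.098 (subclone 5). Only Krt20 in subclone 2 exceeded a z-score difference of 1, as did 0.144% of all genes in that comparison and 0.152, 0.173, 0.202 and 0.173% in those of subclones 1, 3, 4 and 5.

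Krt7, Krt8, Krt19, Krt20 and Krt80 fell in every subclone, and no subclone library reached the range of WT5 for them. Of all genes, 26.2, 25.3, 26.9, 32.0 and 28.5% had all libraries of subclones 1 to 5, respectively, below those of WT5. These shares are for each subclone alone. The share of all genes below WT5 in all 5 subclones at once was not computed. Krt8 was at 478.9 to 668.8 TPM over the 20 subclone libraries, and its means were 1.62-fold (subclone 2) to 2.03-fold (subclone 4) lower than in WT5. Its means remained above that of polyclonal WT cells, and the 382 TPM of the highest polyclonal WT library was below every subclone library. Krt19 fell 1.83-fold (subclone 1) to 2.21-fold (subclone 4), to means of 155.5 to 187.6 TPM. For Krt19 the polyclonal WT mean of 177.7 TPM lay within this range, with libraries that overlapped those of its neighbours in the order. That placement depends on the scale. After rescaling to nuclear protein-coding genes, the log2 difference of Krt19 was 0.70 in WT5 against polyclonal WT cells. In the subclones against WT5 it was -0.79 (subclone 1) to -1.06 (subclone 4). On that scale all subclone means of Krt19 thus lay below that of polyclonal WT cells.

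Krt80 fell 1.79-fold (subclone 2) to 2.64-fold (subclone 4). All subclone libraries of Krt80, at 5.36 to 9.94 TPM, lay between the ranges of polyclonal WT cells and WT5. Krt7, which was already lower in WT5 than in polyclonal WT cells, fell further, by 1.81-fold (subclone 1) to 2.11-fold (subclone 4). It was the only member whose subclones all lay below both other lines, at 55.2 to 77.8 TPM.

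Krt18 fell less than its partner. Its subclone means, 614.9 to 741.5 TPM, were 1.29-fold to 1.56-fold below WT5, and it was called in subclones 2, 4 and 5 (limma adjusted p = 0.001009, 8.142e-05 and 0.003932). In subclones 1 and 3 it was not called with z-scores (adjusted p = 0.01086 and 0.04215), although every library was below every WT5 library, and it was called in both without z-scores (adjusted p = 0.00118 and 0.001552) and after rescaling to nuclear protein-coding genes (0.004196 and 0.007112). In subclone 5 the call of Krt18 was lost without WT5 replicate 2, 3 or 4 or subclone 5 replicate 3 (adjusted p = 0.01549 to 0.01598). In TPM, the libraries of polyclonal WT cells overlapped those of subclones 4 and 5, its neighbours in the order.

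Krt20 fell most. Its libraries held 1.03, 1.06, 1.05 and 1.01 TPM in subclone 1, 0.35, 0.39, 0.35 and 0.87 TPM in subclone 2, 1.5, 1.12, 1.48 and 1.45 TPM in subclone 3, 0.67, 0.67, 0.54 and 0.80 TPM in subclone 4, and 1.60, 1.62, 1.92 and 2.22 TPM in subclone 5. The decrease from WT5 was thus 2.38-fold in subclone 5, 3.15-fold in subclone 3, 4.22-fold in subclone 1, 6.53-fold in subclone 4 and 8.93-fold in subclone 2. The z-score difference in subclone 2 was -1.10 ± 0.09 (limma adjusted p = 0.0002104), and -1.20 without replicate 4, which was higher than the other three. With an unequal-variance test in place of limma, Krt20 in subclone 2 missed the threshold (adjusted p = 0.01039). In the order of the lines by TPM of Krt20, the ranges of WT5, subclone 5, subclone 3, subclone 1 and polyclonal WT cells were apart from one to the next. Those of polyclonal WT cells, subclone 4 and subclone 2 overlapped.

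Krt23 was the one member that did not move in a single direction. It was at 0.32, 0.33, 0.27 and 0.20 TPM in subclone 1, 0.05, 0.03, 0.13 and 0.05 TPM in subclone 2, 0.08, 0.18, 0.14 and 0.28 TPM in subclone 3, 0.53, 0.71, 0.5 and 0.67 TPM in subclone 4, and 0.38, 0.59, 0.47 and 0.47 TPM in subclone 5. Krt23 rose 2.19-fold in subclone 4 and 1.74-fold in subclone 5 (z-score differences 0.31 ± 0.04 and 0.24 ± 0.04, limma adjusted p = 0.000879 and 0.002162), and all libraries of these subclones were above all WT5 libraries, as for 18.5 and 9.96% of all genes. With all 24 libraries in one fit, neither rise of Krt23 was called (adjusted p = 0.04275 and 0.1309). It fell 4.23-fold in subclone 2 (-0.81 ± 0.14, limma adjusted p = 0.003523). This call was lost without WT5 replicate 1, 2 or 3 or subclone 2 replicate 1 or 4 (adjusted p = 0.01052 to 0.01221) and with the unequal-variance test (adjusted p = 0.03803). The test was not passed in subclones 1 and 3 (adjusted p = 0.7596 and 0.07469).

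The third comparison was among the 5 subclones only, which leaves WT5 and its table out. By a limma F-test over the 20 libraries, 5 of 7 keratins differed (Krt8, Krt19, Krt20, Krt23 and Krt80), beside 25.0% of all genes. The median span from the lowest to the highest subclone mean was a z-score of 0.09 for the keratins and 0.10 for all genes. Krt7 (adjusted p = 0.2538) and Krt18 (adjusted p = 0.01457) were not called. For Krt18 the test was passed without subclone 1 replicate 4 or subclone 3 replicate 2 (adjusted p = 0.008794 and 0.003685). The span exceeded a z-score of 1 for Krt23 only (1.12), which 0.635% of all genes did. That span was 0.69 for Krt20, 0.19 for Krt80, 0.09 for Krt8 and 0.08 for Krt19. The spans of Krt8 and Krt19 were below the median of all genes, and Krt19 was not called on log2 values without z-scores. In TPM, the highest subclone mean was 9.27-fold the lowest for Krt23, 3.76-fold for Krt20 and 1.47-fold for Krt80, while for Krt7, Krt8, Krt18 and Krt19 it was at most 1.25-fold.

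Of the 10 pairs of subclones, 5 differed in Krt23, 5 in Krt20, 4 in Krt80, 3 in Krt8, 2 in Krt19, 1 in Krt18 and 0 in Krt7 by contrasts of the same fit, where the share of all genes called was 3.77, 3.51, 12.7 and 9.21% for subclones 2 to 5 against subclone 1, 3.87, 14.7 and 9.05% for subclones 3 to 5 against subclone 2, 12.4 and 8.8% for subclones 4 and 5 against subclone 3, and 20.5% for subclone 5 against subclone 4. Krt20 separated subclone 5 from subclones 2 and 4 (0.69 ± 0.07 and 0.52 ± 0.07, limma adjusted p = 3.046e-06 and 2.034e-05), whereas Krt23 did not separate subclone 5 from subclone 4 (-0.08 ± 0.13, adjusted p = 0.7206). Krt23 separated subclones 4 and 5 from subclone 2 (1.12 ± 0.13 and 1.05 ± 0.13, limma adjusted p = 7.937e-06 and 3.152e-05). By their means, the low keratins therefore ordered the subclones differently: subclone 4 was highest in Krt23 and next to lowest in Krt20, and subclone 2 was lowest in both. The lowest places were not resolved. Subclone 2 was not separated from subclone 4 in Krt20 (limma adjusted p = 0.105) or from subclone 3 in Krt23 (limma adjusted p = 0.04383). Subclone 4 was also lowest in Krt80, below subclones 1, 2, 3 and 5 in all 4 pairs (limma adjusted p = 0.0001986, 4.198e-05, 0.006574 and 4.647e-05).

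**Figure D3:**
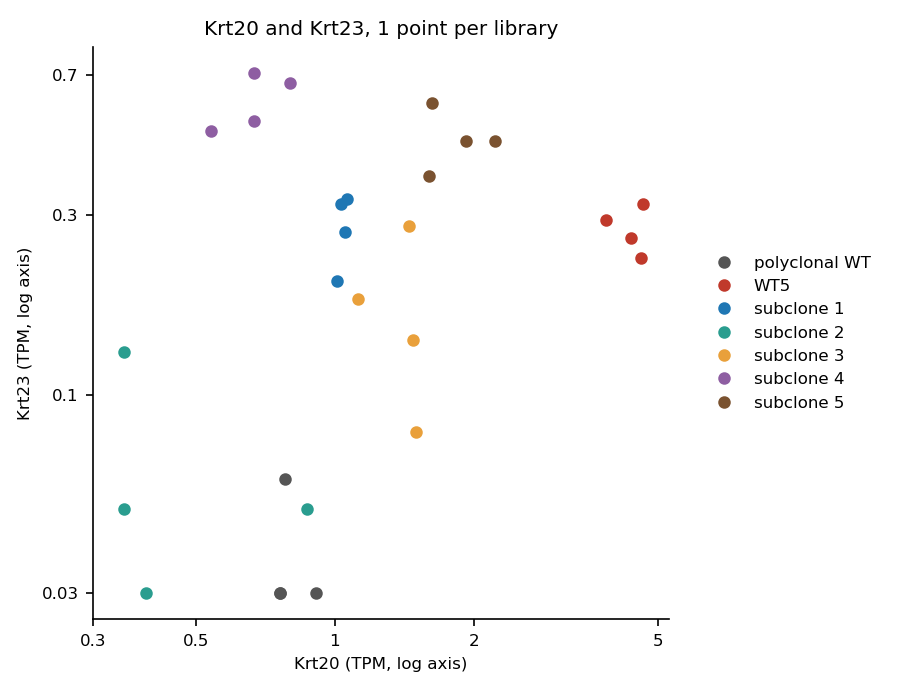
Krt20 against Krt23 in TPM on log axes, 1 point per library (the points of a pair of polyclonal WT libraries coincide at 0.76 and 0.03 TPM). WT5 lies at the right, subclone 4 at the upper left with Krt23 at 0.5 TPM or more, and polyclonal WT cells and subclone 2 at the bottom left.

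Since a filament needs both types, the balance between them was computed. Krt7, Krt8 and Krt80 made up 40.8% ± 0.75 (SD, n = 4) of the summed TPM of the 7 keratins in polyclonal WT cells and 46.8% ± 0.94 in WT5. In the subclones this type II share was 41.9% ± 0.44, 44.5% ± 0.56, 42.3% ± 0.52, 42.1% ± 1.3 and 40.8% ± 0.62, in the order of their numbers. The libraries of WT5 overlapped none of the others. In each of the 6 comparisons a two-sided exact permutation test gave p = 0.02857, which is the smallest that 4 against 4 libraries allow, and adjustment over the 6 left it at 0.02857. Krt8 and Krt18, the most abundant members, went the same way. The ratio of Krt8 to Krt18 was 0.567, 0.565, 0.553 and 0.578 in polyclonal WT libraries and 1.15, 1.02, 0.986 and 1.05 in WT5. Thus Krt18 mRNA exceeded Krt8 mRNA in every polyclonal WT library, and both were about level in WT5. In the subclones the ratio ranged from 0.741 to 0.902, between the ranges of the other lines, and subclone 2 had the highest mean at 0.874.

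Annotated neighbours and copies limit these values. Of the stretches of 50 bases in the longest Krt8 transcript, 26.9% also occur in the pseudogene Krt8-ps. No TPM is given for Krt8-ps, so it is unknown how reads from these stretches were counted. The read length differed between polyclonal WT cells and WT5. The ratio of Krt8 to Krt18 is uncertain to that extent between these lines. Of the Krt18 stretches, 0.721% also occur in Gm17847 or Gm5200, and for the remaining members the share found in another gene was 0. Gm17847 was at 0 to 0.09 TPM over the 28 libraries, and no TPM is given for Gm5200. Genes on the opposite strand overlap Krt7 (Gm671), Krt8 (Gm36026) and Krt80 (Gm35853 and Mir1941). No TPM is given for Gm671, Gm36026 and Gm35853, and Mir1941 had a mean of 0 TPM over the 28 libraries. Because it is not given whether the libraries keep the strand, any reads of these genes cannot be told apart from those of the keratins.

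**Figure D4:**
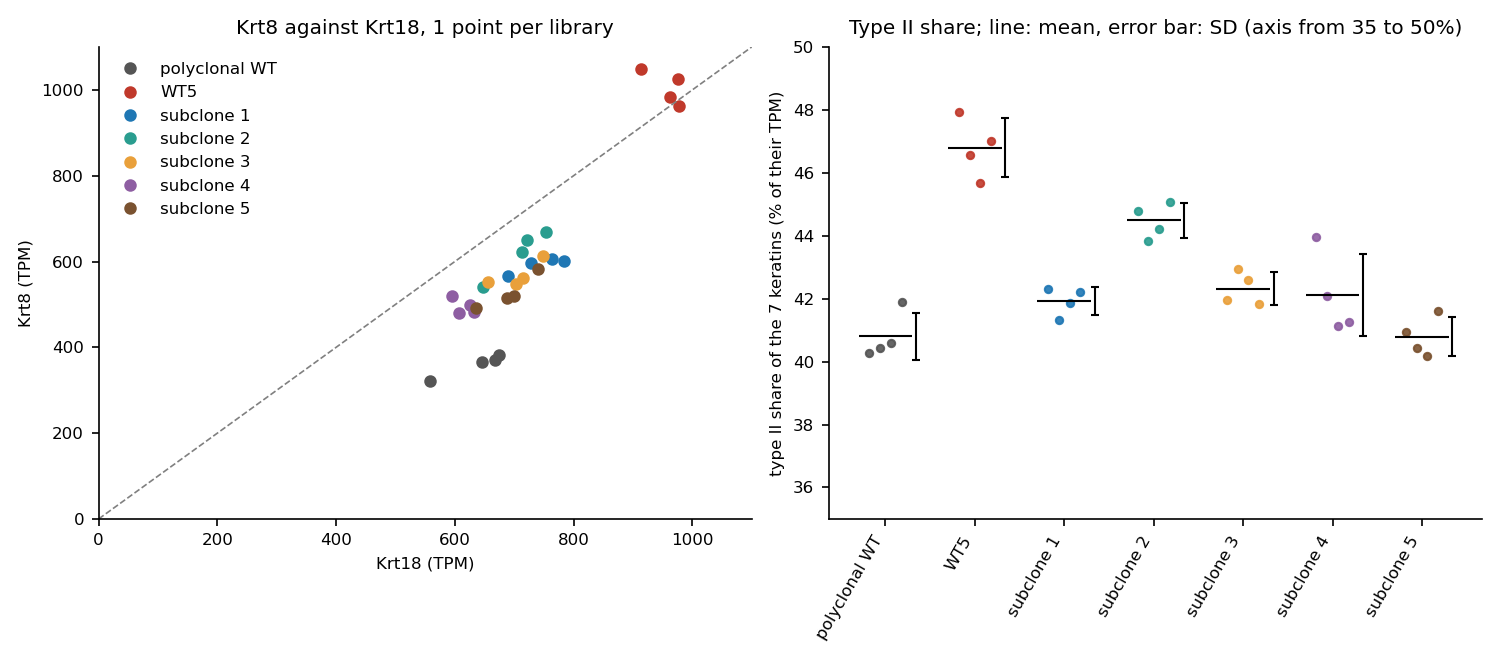
Left, Krt8 against Krt18 in TPM, 1 point per library, with a dashed line where both are equal; right, type II share of the summed TPM of the 7 keratins, with means and SD (n = 4) and an axis that does not start at 0. WT5 lies along the dashed line, polyclonal WT cells lie farthest below it with ratios of 0.553 to 0.578, and the share is highest in WT5 at 46.8%.

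Other keratins were nearly absent. Of 46 further keratin symbols found, only Krt10, a type I keratin of stratified epithelia, and Krt15, a type I keratin of basal cells, reached a mean of 1 TPM in a line. The line means of Krt10 were 4.55 to 5.91 TPM. Krt15 was at 1.92 ± 0.26 TPM in polyclonal WT cells and at 0.0150 ± 0.03 TPM in WT5, and was listed at 0 in all libraries of subclones 2, 3 and 4. The type II keratin of basal cells, Krt5, was at most at a mean of 0.0525 TPM. The summed level of the other type II keratins was 0.11 to 0.34 TPM in polyclonal WT libraries and 0.59 to 0.81 TPM in WT5. Between WT5 and polyclonal WT cells, 0 of 2 other type I keratins that could be tested were called, beside 65.5% of all genes. No other type II keratin could be tested there. In the subclones 2 other type II keratins could be tested and 0 were called, beside 19.5 to 37.3% of all genes. Of the type I keratins Krt17, a keratin of epithelial repair, fell in subclones 1 and 3 from 0.845 TPM in WT5 to 0.23 and 0.35 TPM (z-score differences -0.68 ± 0.13 and -0.52 ± 0.11). In these comparisons 13.6 and 10.9% of all genes were called lower. With so few genes tested, these counts say little.

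Keratin filaments end at desmosomes. Of 13 desmosome genes, 9 could be tested between WT5 and polyclonal WT cells, and 7 rose and 2 fell, beside 65.5% of all genes called, 34.5% higher and 30.9% lower. Dsg2, the desmosomal cadherin of simple epithelia, rose from 7.29 to 100.8 TPM and its partner Dsc2 from 5.85 to 25.3 TPM (z-score differences 1.15 ± 0.01 and 0.61 ± 0.01), whereas Perp, a membrane protein of desmosomes, fell from 51.7 to 5.22 TPM (-1.14 ± 0.02). Pkp1, a plaque protein, rose from 0.0425 to 5.76 TPM (2.24 ± 0.10). In the subclones 2 to 6 of the 9 fell and 1 to 3 rose, beside 10.9 to 19.2% of all genes called lower and 8.65 to 18.2% called higher, with median z-score differences of -0.14, -0.12, -0.07, -0.12 and -0.06. Pkp1 was the member with the largest difference in all 5 subclones, falling to means between 0.63 TPM (subclone 1, -1.06 ± 0.01) and 3.61 TPM (subclone 5, -0.22 ± 0.03). Perp fell in subclones 1 and 2 and rose in subclone 4 (0.41 ± 0.02), and its span among the subclones was 0.97. Over the 5 subclones, 6 of the 9 differed, beside 25.0% of all genes.

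A further list held 26 genes of plakins, keratin-binding proteins and others, among them integrins and the microtubule-binding Map7. Its counts are therefore not of keratin-binding proteins alone. Of these genes 23 could be tested, of which 18 rose and 4 fell in WT5, against the same background of 34.5% higher and 30.9% lower. The largest differences were those of Sfn, the 14-3-3 protein sigma (27.2 to 222.8 TPM), the scaffold protein Akap12 (38.4 to 281.1 TPM), the small heat shock protein Hspb1 (157.0 to 817.2 TPM) and the integrin Itga6 (10.2 to 29.6 TPM). In the subclones 3 to 8 of the 23 fell and 1 to 5 rose, shares of these genes to be read beside the 10.9 to 19.2% of all genes called lower and the 8.65 to 18.2% called higher. Sfn was the one with the largest difference in subclones 2, 3, 4 and 5, at 118.1 to 137.5 TPM, and the microtubule-binding Map7 had the widest span among the subclones (0.22).

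Of 16 genes of other intermediate filaments 9 could be tested, and 7 rose and 0 fell in WT5, where 34.5% of all genes were called higher and 30.9% lower. Vim, which encodes the filament protein of mesenchymal and of many cultured cells, rose from 1.67 to 16.8 TPM (1.01 ± 0.07), and Lmna, which encodes lamin A of the nuclear envelope, from 89.8 to 278.8 TPM (0.47 ± 0.02). Vim fell in all 5 subclones, with means between 2.47 TPM (subclone 4, -0.92 ± 0.05) and 6.14 TPM (subclone 5, -0.46 ± 0.05). In WT5 Vim was still far below Krt8 and Krt18. Lmnb1 rose in subclones 1 and 4 (0.07 ± 0.01 and 0.09 ± 0.02).

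Of 26 transcription factors that act in simple epithelia, 20 could be tested between WT5 and polyclonal WT cells, where 9 rose and 5 fell. These 14 of 20 are near the background of 65.5% of all genes called. Gata3, a factor of the collecting duct, fell from 4.08 to 0.04 TPM (-2.23 ± 0.07), Ehf, an ETS factor of epithelia, fell from 155.2 to 39.1 TPM (-0.71 ± 0.02), Ovol2 fell from 6.39 to 2.05 TPM, and Klf4 rose from 0.158 to 3.82 TPM (1.41 ± 0.07). Of 19 tested in the subclones, 4 to 8 fell and 1 to 4 rose, beside 10.9 to 19.2% of all genes called lower and 8.65 to 18.2% higher. The AP-1 genes Fosl1 and Jun were among the 4 with the largest differences in subclones 2, 3, 4 and 5, where both fell: Fosl1 from 9.97 TPM to 4.16 to 7.33 TPM and Jun from 142.2 TPM to 54.7 to 73.4 TPM. Grhl3, which acts in epithelial barrier formation, fell in subclones 1, 3, 4 and 5 and had the widest span among subclones (0.66).

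The median z-score difference between WT5 and polyclonal WT cells was 0.20 for the desmosome genes, 0.14 for the list with plakins and keratin-binding proteins, 0.59 for the other intermediate filaments and 0.08 for the transcription factors, beside 0.01 for all genes. The 0.59 is the value of Sync, which had means of only 0.0675 TPM in polyclonal WT cells and 0.255 TPM in WT5. Sync was not called (limma adjusted p = 0.01372). For these lists other than the desmosome genes, the medians in the subclones lay between -0.13 and 0.03, beside at most 0.01 in size for all genes. The z-scores keep the medians of all genes near 0.

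Markers of other cell types were read beside the first comparison. Of 12 principal cell markers 7 could be tested, and 1 rose and 5 fell in WT5, beside 65.5% of all genes called and 30.9% called lower. Their summed level was 98.8 to 111.8 TPM in polyclonal WT libraries and 73.3 to 77.4 TPM in WT5, and Avpr2, the vasopressin receptor, fell from 10.6 to 0.06 TPM. Of 5 urothelium markers 2 could be tested and 0 were called (limma adjusted p = 0.0214 for Upk1a and 0.608 for Upk3b). The list summed to 19.3 to 24.2 TPM in polyclonal WT libraries and 4.62 to 7.19 TPM in WT5. Most of that difference was Upk3a, a uroplakin of superficial cells, which was named after its values were seen and could not be tested, at 15.0 TPM in polyclonal WT cells and 0.0575 TPM in WT5. Fewer cells of a type and less RNA per cell cannot be told apart in these bulk libraries, and the part of these markers in the keratin differences was not tested. Intercalated cell markers summed to at most 1.96 TPM, endothelium markers to at most 0.29 TPM and distal convoluted tubule markers to at most 0.03 TPM. Proximal tubule markers summed to 1.45 to 1.62 TPM in polyclonal WT cells and up to 10.3 TPM in subclone 5, thick ascending limb markers to at most 0.14 TPM and up to 13.3 TPM in the same lines, and leukocyte markers to between 1.52 and 4.68 TPM in all libraries. Each of these sums was mostly 1 gene. It was Lrp2 (mean of 8.19 TPM in subclone 5), Umod (11.6 TPM in subclone 5) and Cd68 (line means of 1.83 to 3.73 TPM), respectively. The other markers of these lists had line means of at most 0.288 TPM (Cubn in WT5), so no cell type can be read from the sums.

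For each keratin that differed among the subclones, the genes nearest to its pattern were taken from 11872 genes by the distance between log2(TPM) profiles over the 7 lines, each centred on its mean. For Krt80 these were Igsf3, Tnfrsf12a and Cd109, at log2 distances of 0.25, 0.26 and 0.33 (r = 0.995, 0.994 and 0.995 over 7 lines). For Krt8 they were Kctd11, Qsox2 and Selenoh (0.22, 0.23 and 0.25), and for Krt19 Insig2, Ehd1 and P4ha1 (0.22, 0.26 and 0.27). Krt20 and Krt23 had no companion as close, the nearest being Tex26, Slc52a3 and Gpr162 (1.43, 1.62 and 1.65) and Acaa1b, Hey1 and Arl4d (1.89, 1.91 and 1.96). These are descriptions over 7 points that share the difference between polyclonal WT cells and WT5 and the difference between the tables.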

How the data were processed

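The data are RNA sequencing of 28 mIMCD-3 libraries. The deposited values are TPM, which the authors made with STAR 2.7.3a, RSEM 1.3.1 and Ensembl release 81 on GRCm38, in a table of polyclonal WT and WT5 libraries and another of the subclones. They carry 2 decimals and keep no depth, so no counting error can be given and tests for read counts were not used. Groups were taken from the labels.

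To compare lines, log2(TPM) was taken with no pseudocount and converted to z-scores per library, using genes above 0 in all 8 libraries (13723) or, for the subclones, in all 24 with WT5 (13860). Tests were two-sided, by limma (3.58.1, R 4.3.3), with Benjamini-Hochberg adjustment over all these genes and calls below 0.01. All 7 keratins passed the filter. On simulated data for WT5 against polyclonal WT cells, with 200 of 13723 genes changed by 1.5 on the log2 scale, limma recovered 81.5% with 3 false calls. Far fewer genes were changed there than the 65.5% called in the data. The simulated noise was independent between libraries and held no difference of read type or time. Recovery and false calls in the data are therefore not known from it. The type II share was compared with exact permutation tests (SciPy 1.17.1).

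Alternatives were the unequal-variance test of the methods, a minimal z-score or log2 difference of 1, pseudocounts of 0.1 and 1, a mean TPM of at least 1, genes above 0 in some library, no z-scores, quantile normalization, TPM rescaled to nuclear protein-coding genes, a joint fit of 24 libraries, an adjusted p below 0.05, the replicate number as a block, and each library left out in turn.

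The keratins and gene lists were chosen with earlier results of these data known. Named from each list were up to 4 called genes with the largest z-score difference per comparison, other keratins with a mean of at least 1 TPM in a line and, for each keratin called among the subclones, the 3 genes nearest in profile. Krt5, Sync and the markers Cdh1, Epcam, Aqp2, Hoxb7, Avpr2, Upk3a, Lrp2, Cubn, Umod and Cd68 fall outside this rule and were chosen after their values were seen.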

Additional observations from a re-analysis of the deposited data

Results flagged for a closer look

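Some keratin levels had 1 library far from the other three of its line, by Dixon's test at the 95% level. This was so in 6 of 49 groups of 4 libraries. Chance gives about 1 in 20 only for continuous, normal and independent values. These values are rounded to 2 decimals and the groups share libraries, so no excess can be read from the count. Krt23 in polyclonal WT cells was flagged with its other libraries tied at 0.03 TPM. The libraries were Krt19 in subclone 2 replicate 2 (134.2 TPM) and in subclone 3 replicate 3 (183.1 TPM), Krt20 in polyclonal WT replicate 4 (0.91 TPM), in subclone 2 replicate 4 (0.87 TPM) and in subclone 3 replicate 2 (1.12 TPM), and Krt23 in polyclonal WT replicate 1 (0.06 TPM).

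The difference from WT5 itself differed between the subclones for 5 keratins by the limma F-test, beside 25.0% of all genes. The span of subclone mean z-scores was 0.09185 for Krt8, 0.07519 for Krt19, 0.6879 for Krt20, 1.123 for Krt23 and 0.1938 for Krt80. Its median over all genes was 0.09624, above the spans of Krt8 and Krt19.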

How the results depend on the processing

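With the study's requirement of a z-score difference above 1, the number of keratins called was 0 in WT5 against polyclonal WT cells, 0, 1, 0, 0 and 0 in subclones 1 to 5 against WT5, and 1 among the subclones. Of all genes, 5.43% met it in the first of these comparisons, 0.144 to 0.202% in the subclones against WT5, and 0.635% among the subclones. With a log2 difference above 1 and no z-scores, 4 keratins were called in WT5 against polyclonal WT cells. The number was 1 in subclones 1 and 5 each, 3 in subclones 2 and 3 each, 6 in subclone 4, and 2 among the subclones. By this rule 3501 of 13723 genes were called in WT5 against polyclonal WT cells. In subclones 1 to 5 against WT5 440, 373, 501, 713 and 478 of 13860 genes were called, and 753 among the subclones. Testing also genes at 0 in some libraries, with a pseudocount of 0.1, left 3 keratins called among the subclones, beside 3157 of 21939 genes. Of the counts under settings that kept all libraries, 74 stayed within 1.5 times the reported one and 15 did not. No keratin that was called changed its direction under any of these settings.

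With the replicate number as a block, 3 keratins were called in subclone 3 in place of 5, beside 669 of 13860 genes. The counts of keratins in the other comparisons stayed within 1.5 times. The replicate numbers do not pair the libraries: deviations from the group means of same-numbered libraries correlated between -0.048 and 0.067.

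With 1 library left out, 7 keratins were called in WT5 against polyclonal WT cells, 5, 6 to 7, 5, 7 and 6 to 7 in subclones 1 to 5, and 5 to 6 among the subclones. In the first of these comparisons 8280 to 8630 of 13723 genes were then called. Of 13860 genes, 2386 to 3155, 2394 to 3115, 1578 to 2846, 4114 to 5045 and 1793 to 3490 were called in subclones 1 to 5. Among the subclones it was 2922 to 3655. The type II share then differed by 5.62 to 6.37 percentage points in WT5 against polyclonal WT cells, and by -5.25 to -4.50, -2.68 to -1.93, -4.85 to -4.10, -5.31 to -4.31 and -6.38 to -5.63 in subclones 1 to 5 against WT5. 4 against 3 libraries cannot give an exact p below 0.05714, so this test is void there.

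The share of higher calls over all genes in subclones 1 to 5 against WT5 was 48.2, 51.5, 44.3, 48.6 and 46.8% with z-scores, 36.0, 34.7, 28.3, 36.2 and 28.8% without them, and 56.8, 63.7, 51.8, 51.9 and 52.5% after rescaling to nuclear protein-coding genes. As TPM keeps no depth, counting error could not be given, and Krt20 and Krt23 are limited most by it.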
